A study of Mus musculus with 12 samples.

Results

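The core binding factor genes and their ETO partners were followed by RNA-Seq in mouse bone marrow PreMegEs, the progenitors from which megakaryocytes and erythroid cells arise. The members were chosen by gene symbol: Runx1, Runx2, Runx3, Cbfb, Cbfa2t2, Cbfa2t3 and Runx1t1, which are 7 of the 41128 genes counted. The 12 libraries fall into 4 groups of 3, and each library holds RNA from 3 pooled C57BL/6 mice aged 12 to 16 weeks. WT mice carried both wild-type Runx1 alleles. P2- and P2+ PreMegEs came from reporter mice with 1 wild-type Runx1 allele and 1 allele carrying GFP at the distal promoter P1 and truncated human CD4 (hCD4) at the proximal promoter P2, and were separated by flow cytometry into hCD4-negative and hCD4-positive fractions. KO PreMegEs are labelled as a RUNX1C knockout, RUNX1C being the isoform that P1 directs. In the study's mice without RUNX1C, both alleles carry GFP at P1 and P2 is left in place. The P2 gate is itself a readout of Runx1 transcription, so any Runx1 difference that involves P2+ or P2- is tied to the sort. WT and KO PreMegEs were not gated on P2. The fractions also differ from WT and KO in their Runx1 alleles, so gate and genotype cannot be told apart in those comparisons. In bulk RNA, fewer cells of a type and less RNA per cell cannot be told apart.

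RUNX proteins are the DNA-binding subunits of core binding factor, and CBFB is the shared subunit that does not touch DNA but strengthens RUNX binding and protects RUNX proteins from degradation. RUNX1 is needed for blood stem cells to form and for megakaryocytes to mature, RUNX2 is best known from bone formation, and RUNX3 from T cells and sensory neurons. The ETO proteins (RUNX1T1, CBFA2T2 and CBFA2T3) are co-repressors that bring NCOR complexes and histone deacetylases to DNA-bound factors, and RUNX1T1 is known from its leukemic fusion to RUNX1. CBFA2T3, also called ETO2, sits in the SCL (TAL1) complex that governs erythroid and megakaryocytic genes.

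Runx1 lies at chr16:92601466-92826149 on the minus strand (GRCm38), and its P1 and P2 start sites are 128745 bases apart. Of 7 annotated transcripts, 3 begin at P1, and 22.3% of the 12025 exonic bases of the gene lie upstream of the P2 start. The counts are per gene over all exons, so they neither separate P1 from P2 transcripts nor check the KO label. The 250 bases upstream of each start are shown because the P2+ and P2- groups are defined by the second of them. Capitals mark CCGGAA, the core of ETS sites; neither stretch holds the RUNX letters TGTGGT, the GATA letters AGATAA or the KLF1 letters CCACACCC on either strand. Both are minus-strand sequences from RefSeq on GRCm38.p6, at chr16:92826075-92826324 for P1 and chr16:92697330-92697579 for P2.
Runx1 P1: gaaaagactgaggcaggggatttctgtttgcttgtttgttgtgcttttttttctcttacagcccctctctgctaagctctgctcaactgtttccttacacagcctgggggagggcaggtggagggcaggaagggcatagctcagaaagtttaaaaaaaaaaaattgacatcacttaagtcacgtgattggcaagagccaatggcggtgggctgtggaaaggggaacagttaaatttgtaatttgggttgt
Runx1 P2: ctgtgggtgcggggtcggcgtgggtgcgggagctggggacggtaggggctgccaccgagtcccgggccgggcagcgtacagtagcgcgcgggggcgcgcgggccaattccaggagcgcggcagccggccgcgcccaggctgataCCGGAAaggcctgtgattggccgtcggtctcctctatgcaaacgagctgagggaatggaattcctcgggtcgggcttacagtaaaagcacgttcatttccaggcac
CCGGAA occurs in 14.9% of the 32817 promoter windows of 300 bases (250 before and 50 after the start) in the RefSeq table, AGATAA in 11.2% and CCACACCC in 3.56%. The P1 window is 45% G and C and the P2 window 69%, against a median of 52.7% over all windows.

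**Figure D1:**
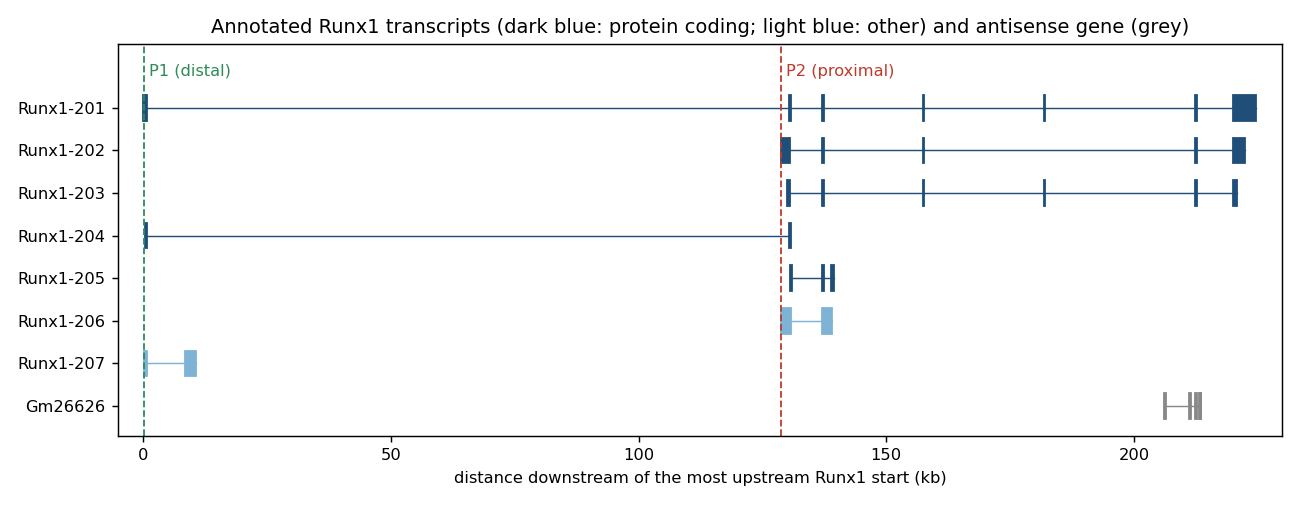
Annotated Runx1 transcripts by distance downstream of the most upstream start, in kb; boxes are exons and lines introns, dark blue marks protein-coding transcripts, light blue other transcripts and grey the antisense gene Gm26626. The dashed lines mark P1 and P2, 128745 bases apart, and most exonic bases lie downstream of P2.

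The windows that start the distal transcripts of Runx1 and Runx3 and the only Runx2 window in the table share a run of 18 bases that holds the RUNX letters on the opposite strand in 2 copies. The 30 bases around this run are shown with ACCACA, the reverse complement of TGTGGT, in capitals. They lie at chr16:92826025-92826054 (minus strand), chr17:44814583-44814612 (minus strand) and chr4:135120503-135120532 (plus strand).
Runx1: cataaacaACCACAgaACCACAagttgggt
Runx2: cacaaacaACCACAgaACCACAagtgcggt
Runx3: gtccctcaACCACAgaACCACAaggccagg
The run begins at position 27 of the Runx1 transcript, at position 22 of the Runx2 transcript and at position -136 from the Runx3 start. It was looked for after the sequences had been seen. Among all 32817 windows it occurs in 4, the remaining one being that of Gm16225, whose window overlaps that of Runx3 on the opposite strand. TGTGGT occurs in 16.8% of all windows and at 2 or more places in 1.81%. The Runx1 distal window holds 2 copies, the Runx2 window 3 and the Runx3 distal window 2, and none was found in the proximal windows or those of Cbfb, Cbfa2t2 and Cbfa2t3. A match of letters is a description of the sequence and not evidence of binding.

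Total counts ranged from 10726098 to 14445026 per library (median 12284879), so that a count of 0 allows a level of up to 3 counts, or 0.208 to 0.286 CPM (the count scaled by library size), counting error only. Lineage markers were present and moved with the groups. The summed level of the 9 erythroid markers in the table (of 10 listed) was 1780 to 2014 CPM in WT, 2860 to 3452 in P2-, 725 to 908 in P2+ and 2741 to 3115 in KO. The sum of 10 megakaryocyte markers was 735 to 844, 280 to 348, 1158 to 1657 and 618 to 633 CPM in the same order. The lymphoid markers Cd3g, Cd8a and Trbc2 were at 0 in all libraries. The summed level of 12 immediate early genes reached 13552 CPM in P2- replicate 2 and 9233 in P2+ replicate 2, and 187 to 1293 elsewhere. Calls on members that change without replicate 2 of both groups are therefore given both ways.

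Each comparison was tested by edgeR's quasi-likelihood F-test on the 6 libraries concerned, and a gene was called at a Benjamini-Hochberg adjusted p under 0.05 over all genes tested. The 6 members that passed the filter of 1 CPM in 3 libraries are all but Runx1t1. Between P2+ and P2-, 5 of the 6 were called, against 37.1% of all genes tested; 4 were higher in P2+ (20.1% of all genes) and 1 lower (17.0%). P2+ differed from WT in 3 members, against 16.5% of all genes, and all 3 were higher (9.45%). P2- differed from WT in 2, against 16.5%, both of them lower (9.60%). KO differed from WT in 1 member, against 14.9%, which was lower (8.76%). KO differed from P2- in 1, against 1.61%, which was higher (1.33%), and from P2+ in 4, against 37.0%, of which 3 were lower in KO (20.6%) and 1 higher (16.4%). The 6 comparisons share libraries and are not independent of each other. Runx1 was among the called members in every comparison but KO vs WT, and those Runx1 calls are tied to the P2 gate. Without replicate 2 in both groups, 4 members were called in P2+ vs P2- (4813 genes in all), 2 in P2+ vs WT (1711) and 2 in KO vs P2- (252), and the other member counts were as above.

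A called difference of at least 2-fold was seen for Runx1 and Runx2 in P2+ vs P2-, where 12.7% of all genes had one, and for no member in P2+ vs WT (3.84% of all genes), P2- vs WT (4.68%), KO vs WT (3.41%), KO vs P2- (0.508%) or KO vs P2+ (11.3%). All libraries of a group lay on the same side of those of the other for 5 of the 6 tested members in P2+ vs P2- (49.9% of all genes) and in P2+ vs WT (35.5%), for 4 in P2- vs WT (34.7%), KO vs P2- (21.2%) and KO vs P2+ (50.4%), and for 2 in KO vs WT (31.6%).

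Runx1 varied the most among the tested members. WT libraries held Runx1 at 364, 388 and 358 CPM, P2- libraries at 213, 201 and 216, P2+ libraries at 658, 625 and 613, and KO libraries at 340, 382 and 358. All P2- libraries were thus lowest, all P2+ libraries highest, and WT and KO overlapped. P2+ exceeded P2- by 1.59 on the log2 scale (SE 0.07, 95% interval 1.43 to 1.76; adjusted p = 2.34e-06), a 3.02-fold difference that follows the gate on P2. Against WT, Runx1 was 0.78 higher in P2+ (SE 0.07, adjusted p = 5.41e-05) and 0.81 lower in P2- (log2 fold change -0.81, SE 0.08, adjusted p = 9.55e-05). Both fractions differ from WT in gate and in Runx1 alleles, which cannot be told apart here. WT stood 37.9 ± 3.82% (SD, n = 3) of the way from the P2- mean to the P2+ mean, and KO 35.6 ± 4.94%.

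Summed over the gene, Runx1 was at a like level in KO and WT. KO against WT gave a log2 fold change of -0.05 with a 95% interval of -0.18 to 0.09 (adjusted p = 0.702), which leaves no room for a change of 2-fold in either direction. KO exceeded P2- by 0.77 (SE 0.07, adjusted p = 0.000848), rank 6 by p among 12588 genes in a comparison where 203 were called. Only P2- was gated on P2 in that comparison, so this Runx1 call is tied to the sort. KO was below P2+ (log2 fold change -0.83, SE 0.06, adjusted p = 5.37e-06). The single gene annotated against Runx1 on the opposite strand, Gm26626, shares 106 exonic bases with it and had 0 counts in all 12 libraries.

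**Figure D2:**
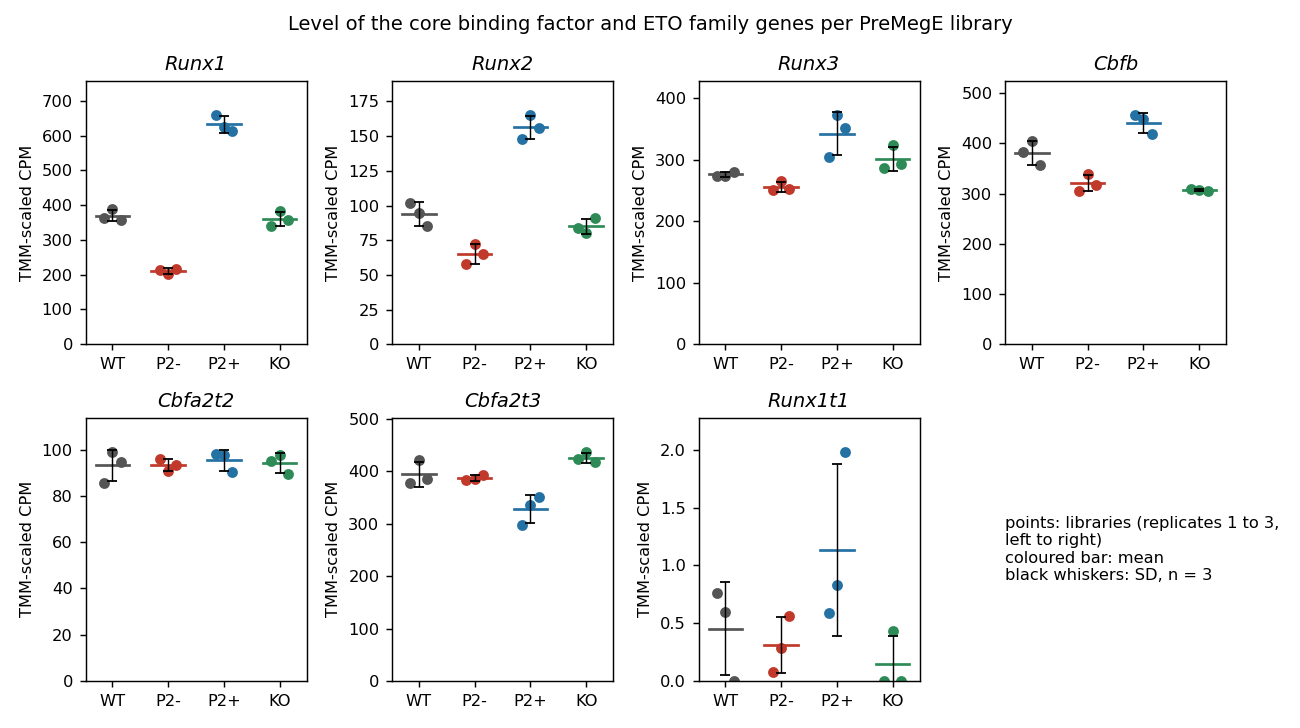
TMM-scaled CPM of the 7 genes in each library, with 1 panel per gene and its own axis from 0; points are libraries, colored bars means and whiskers SD (n = 3). Runx1 and Runx2 are lowest in P2- and highest in P2+, Cbfa2t2 lies between 85.7 and 98.9 CPM in all libraries, and Runx1t1 stays under 2 CPM.

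Runx2 rose and fell in the same order at a lower level. Its WT libraries stood at 102, 94.9 and 85.0 CPM, P2- at 58.0, 72.5 and 65.4, P2+ at 148, 165 and 156, and KO at 83.8, 79.9 and 91.0. The P2+ libraries lay above all others and the P2- libraries below all others, while WT and KO overlapped. Runx2 was 1.26 higher in P2+ than in P2- on the log2 scale (SE 0.10, adjusted p = 2.32e-05), or 2.40-fold. It was 0.74 higher in P2+ than in WT (SE 0.09, adjusted p = 0.000406) and lower in P2- than in WT (log2 fold change -0.52, SE 0.10, adjusted p = 0.00844). In KO it was below P2+ (log2 fold change -0.90, SE 0.08, adjusted p = 1.30e-05).

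The Runx2 values of KO against WT (-0.15, 95% interval -0.32 to 0.02, adjusted p = 0.238) and against P2- (0.37, 95% interval 0.15 to 0.59, adjusted p = 0.105) did not pass the threshold. Without replicate 2 the latter became 0.50 with an adjusted p of 0.0176. Opposite-strand genes over Runx2 had few counts: Runx2os1, which shares 519 exonic bases with it, had 1 to 19 per library, and Supt3, Runx2os2 and Runx2os3 share none. Runx2 itself had 730 to 2378.

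Runx3 moved less. WT libraries were at 274, 274 and 280 CPM, P2- libraries at 250, 265 and 252, P2+ libraries at 304, 372 and 351, and KO libraries at 286, 324 and 293. Every P2+ library exceeded every P2- and WT library, but P2+ replicate 1 fell among the KO libraries. P2+ exceeded P2- by 0.43 on the log2 scale (SE 0.09, adjusted p = 0.00534) and WT by 0.32 (SE 0.09, adjusted p = 0.0306). The difference from WT was not called without replicate 2 (0.24, adjusted p = 0.114), nor under 5 further alternatives. All KO libraries were above all WT libraries, yet the log2 fold change of 0.12 (95% interval -0.01 to 0.25) had an adjusted p of 0.226. KO against P2+ gave -0.20 (adjusted p = 0.0902), which 2 of 13 alternatives called. Gm16224, on the opposite strand of Runx3, shares no exonic base with it and had 5 to 26 counts per library.

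Cbfb was the only member called between KO and WT, where 14.9% of all genes were called. Its WT libraries stood at 382, 404 and 357 CPM, P2- at 306, 339 and 318, P2+ at 456, 449 and 418, and KO at 310, 308 and 305. The KO libraries spanned the narrowest range of any member and group (CV 0.871%) and lay within the range of the P2- libraries or just under it. KO was below WT by a log2 fold change of -0.31 (SE 0.06, 95% interval -0.44 to -0.19; adjusted p = 0.00151), or 1.24-fold, and without replicate 2 the value was -0.27 (adjusted p = 0.0442). The erythroid marker sum was higher and the megakaryocyte marker sum lower in KO than in WT (above), and their part in the Cbfb difference was not tested. It is not stated whether KO and WT libraries were prepared together, so genotype and preparation cannot be told apart.

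Between the reporter fractions Cbfb was 0.46 higher in P2+ than in P2- on the log2 scale (SE 0.08, adjusted p = 0.00179). WT lay between the fractions, at 50.2 ± 19.4% of the way from P2- to P2+. The values against WT were 0.22 for P2+ (adjusted p = 0.0766) and -0.24 for P2- (adjusted p = 0.0738), neither called, although libraries did not overlap in either. DESeq2 and 1 fit over all 12 libraries called both. Leaving out P2- replicate 2 alone gave -0.28 for P2- against WT (adjusted p = 0.0228), a call. KO was lower than P2+ (log2 fold change -0.54, SE 0.06, adjusted p = 8.23e-05), and against P2- it gave -0.07 (95% interval -0.22 to 0.08, adjusted p = 0.647).

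**Figure D3:**
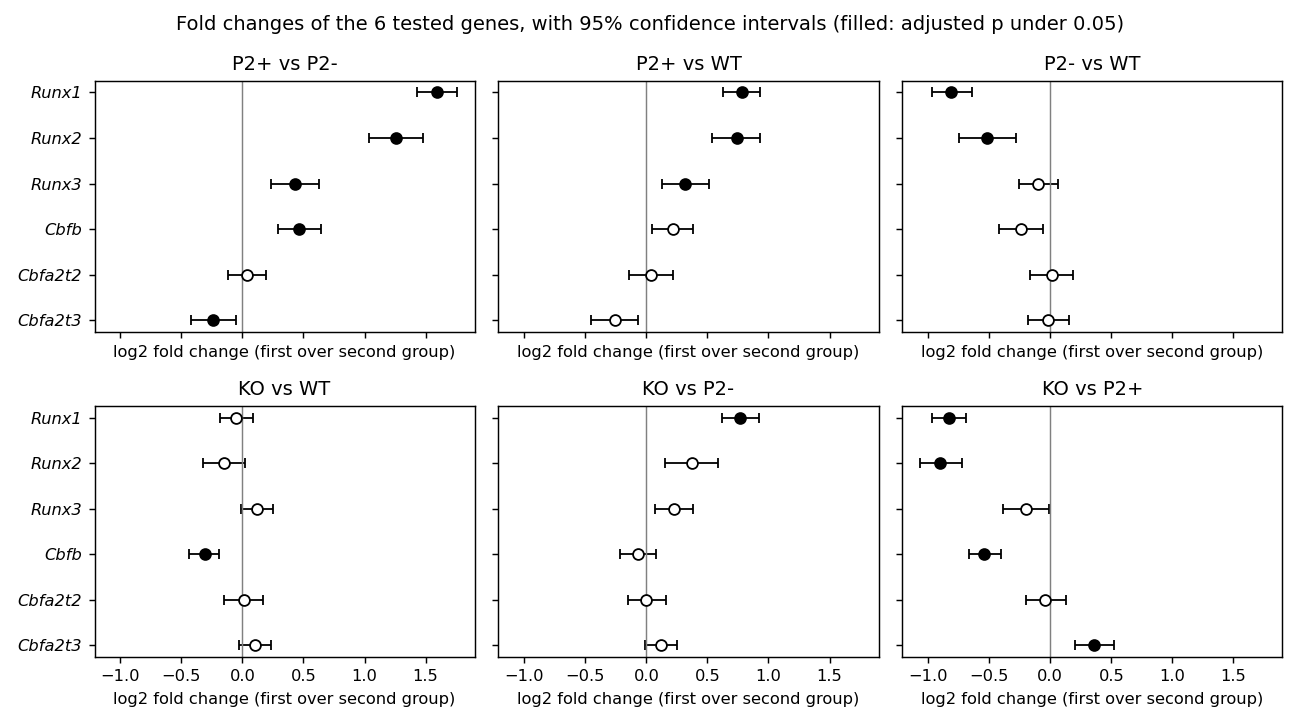
Log2 fold changes (x axis, first group over second) of the 6 tested genes in each of the 6 comparisons, with 95% confidence intervals; filled points have an adjusted p under 0.05. The RUNX genes and Cbfb lie right of 0 in P2+ vs P2-, and in KO vs WT only Cbfb is filled, at -0.31.

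In the ETO family, Cbfa2t3 was lowest where Runx1, Runx2 and Runx3 were highest, in P2+. Its libraries stood at 377, 422 and 385 CPM in WT, 383, 386 and 393 in P2-, 298, 335 and 351 in P2+, and 423, 437 and 418 in KO. All P2+ libraries were below all others. Cbfa2t3 was lower in P2+ than in P2- (log2 fold change -0.24, SE 0.08, adjusted p = 0.0470), a call close to the threshold that was lost under 8 of 13 alternatives, the lot ranging from -0.29 to -0.17. With the replicate number as a block, which pairs these libraries, the value was -0.24 with an adjusted p of 0.00225, in a fit that called 6513 genes where the fit without it called 4762. P2+ replicate 1 was its lowest library, and without it the value was -0.17 (adjusted p = 0.156), while without replicate 2 it was -0.25 (adjusted p = 0.0589). KO exceeded P2+ by 0.36 (SE 0.07, adjusted p = 0.00291), a call kept without replicate 2. P2+ against WT gave -0.26 (adjusted p = 0.0590), KO against WT 0.10 (95% interval -0.03 to 0.23, adjusted p = 0.305) and KO against P2- 0.12 (adjusted p = 0.342). Leaving out P2+ replicate 2 alone gave -0.28 for P2+ against WT (adjusted p = 0.0429), a call. Gm10612 overlaps 295 exonic bases of Cbfa2t3 on the opposite strand and had 0 to 7 counts per library, against 3553 to 5591 for Cbfa2t3, and Gm20388, which spans the gene without sharing exonic bases, had 0.

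Cbfa2t2 was level throughout. WT libraries were at 85.7, 98.9 and 94.8 CPM, P2- at 95.9, 90.8 and 93.3, P2+ at 98.0, 97.8 and 90.2, and KO at 95, 97.8 and 89.6, and every pair of groups overlapped. The log2 fold changes of the 6 comparisons lay between -0.04 and 0.04, and their 95% intervals between -0.20 and 0.22.

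Runx1t1, the translocation partner of RUNX1, was at the limit of detection. It had 11, 7 and 0 counts in WT, 1, 3 and 8 in P2-, 7, 12 and 26 in P2+ and 0, 5 and 0 in KO, and the highest level in any library was 1.98 CPM. All 3 P2+ libraries were at 0.586 CPM or more and all P2- libraries at 0.562 or less, a gap too small at this depth to be read as a difference, and no test was run because the gene did not pass the filter.

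Levels of different genes were set side by side per length, as RPKM, the CPM divided by the exonic length in kilobases. Cbfb had the highest RPKM in each group, with 110 ± 6.69 in WT, 92.2 ± 4.85 in P2-, 127 ± 5.88 in P2+ and 88.4 ± 0.770 in KO (SD, n = 3). Among the RUNX genes, Runx3 came first in RPKM (55.1 ± 0.668 in WT), then Runx1 (30.8 ± 1.34) and Runx2 (10.6 ± 0.985). The RPKM sum of the RUNX genes was 96.5 ± 1.22 in WT, 75.9 ± 1.84 in P2-, 139 ± 6.39 in P2+ and 99.7 ± 5.37 in KO.

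The makeup of that RPKM sum shifted with the P2 gate. Runx1 supplied 31.9 ± 1.02% in WT, 23.0 ± 1.35% in P2-, 38.0 ± 2.99% in P2+ and 30.0 ± 0.191% in KO. Runx3 supplied 57.1 ± 1.39%, 67.3 ± 0.735%, 49.3 ± 2.91% and 60.3 ± 0.978% in the same order. Dividing by the longest transcript in place of all exons raised the Runx1 share to 42.4%, 32.1%, 49.0% and 40.4% and lowered that of Runx3 to 47.8%, 58.9%, 40.0% and 51.0%. The order of Runx1 and Runx3 in P2+ thus depends on the length used, whereas the order of the groups within each gene's share held under both.

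Cbfb RPKM per unit of summed RUNX RPKM was 1.13 ± 0.0550 in WT, 1.21 ± 0.0343 in P2-, 0.915 ± 0.0671 in P2+ and 0.888 ± 0.0493 in KO. The WT and P2- libraries (1.08 or more) lay above all P2+ and KO libraries (0.991 or less). With the longest transcript the mean ratios were 0.886 in WT, 0.994 in P2-, 0.693 in P2+ and 0.701 in KO. The group order P2- over WT over the others thus held, but whether WT and P2- exceed 1 depends on the length used. These are ratios of RNA and not of protein. In the ETO family, Cbfa2t3 made up 81.3 ± 0.532% of the summed RPKM in WT, 81.0 ± 0.486% in P2-, 77.7 ± 1.99% in P2+ and 82.4 ± 0.395% in KO, nearly all of the rest being Cbfa2t2.

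**Figure D4:**
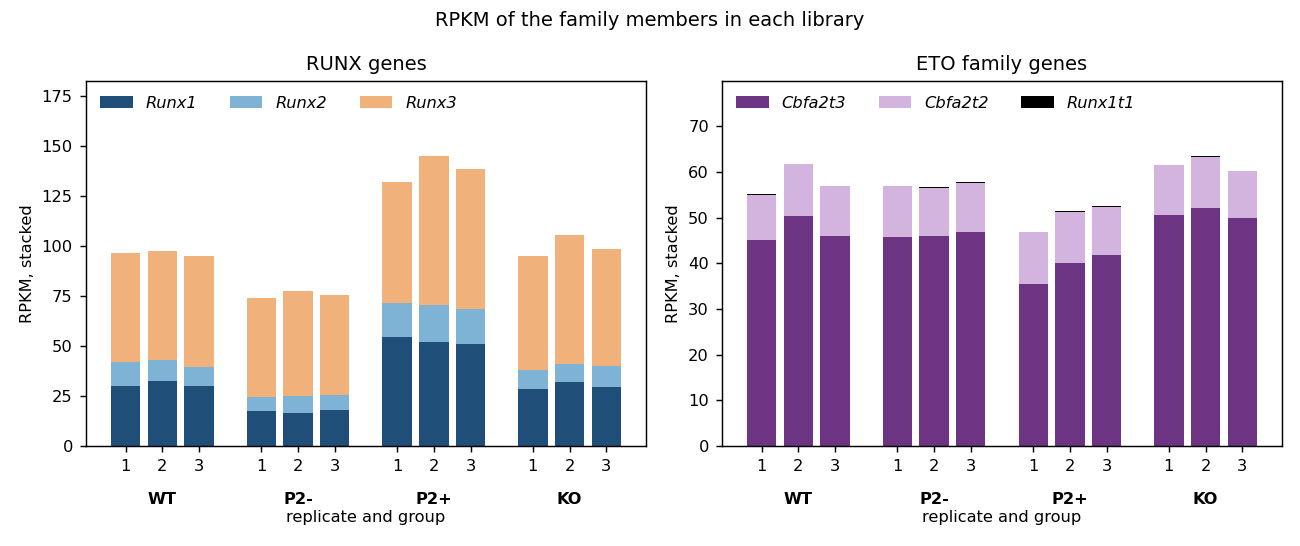
Stacked RPKM (y axis) of the RUNX genes (left) and the ETO family genes (right) in each library, by group and replicate. The RUNX stack averages 139 RPKM in P2+ and 75.9 in P2-, and Cbfa2t3 is the larger part of every ETO stack.

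The 4 lists of genes that work with these factors were counted in the same fits, and the largest rise and fall named for a list are those among called genes with a group mean of at least 10 CPM. Of 21 co-regulators of core binding factor, all were tested, and 2 were called higher and 2 lower in P2+ than in P2-, where 20.1% of all genes were higher and 17.0% lower. Hipk2, a kinase that phosphorylates RUNX1 complexes, had the largest rise (66.1 ± 14.3 to 150 ± 12.8 CPM; log2 fold change 1.18, SE 0.14, adjusted p = 0.000266), and Tle3, a Groucho co-repressor, the largest fall (127 ± 14.8 to 86.2 ± 11.2 CPM; -0.55, SE 0.12, adjusted p = 0.00549). The list median was -0.03, against -0.02 over all genes tested. Between KO and WT, where 14.9% of all genes were called, 1 of the 21 was, the histone methyltransferase gene Kmt2a (619 ± 48.1 CPM in WT, 730 ± 30.6 in KO; 0.23, adjusted p = 0.0222), and the median was 0, as over all genes.

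Of 11 co-repressor genes that act with ETO proteins, 10 were tested between P2+ and P2-, with 1 called higher and 2 lower, against 37.1% of all genes called, and a median of -0.02. Gps2, a subunit of the NCOR complex, had the largest fall (36.1 ± 4.56 to 22.2 ± 1.76 CPM; -0.70, SE 0.13, adjusted p = 0.00307). Between KO and WT, 2 of 10 were lower and none higher, against 8.76% of all genes lower, with a median of 0.01; Zbtb16, which encodes the zinc finger repressor PLZF, fell from 29.5 to 21.1 CPM (-0.49, SE 0.14, adjusted p = 0.0236).

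Of 14 genes of the SCL complex, in which CBFA2T3 sits, 3 rose and 5 fell from P2- to P2+, against 37.1% of all genes called, with a median of 0.03. Ldb1, which encodes the adaptor that bridges SCL complexes on DNA, fell from 442 ± 40.4 to 155 ± 17.4 CPM (-1.50, SE 0.11, adjusted p = 1.54e-05), and the E protein gene Tcf4 rose from 114 ± 5.72 to 171 ± 7.99 CPM (0.59, SE 0.07, adjusted p = 0.000323). Between KO and WT, 5 were higher and 3 lower, against 14.9% of all genes called, with a median of 0.12 against 0 over all genes. Lyl1, which encodes a close relative of SCL, had the largest rise (113 ± 6.36 to 214 ± 5.07 CPM; 0.92, SE 0.07, adjusted p = 3.55e-08) and Tcf4 the largest fall (154 ± 11.5 to 104 ± 8.02 CPM; -0.57, adjusted p = 5.21e-05).

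Of 19 known targets of RUNX1, 18 were tested between P2+ and P2-, with 10 called higher (20.1% of all genes) and 3 lower (17.0%) and a median of 0.80, against -0.02 over all genes. Csf1r, among the 10, passed the filter only through P2+ and so had to differ; without it 9 of 17 were higher and the median was 0.73. Pf4, the platelet chemokine gene, rose from 4.25 ± 1.64 to 72.0 ± 25.2 CPM (4.06, SE 0.32, adjusted p = 2.50e-05), and Myh10, a non-muscle myosin gene that RUNX1 silences during megakaryocyte maturation, fell from 80.2 ± 12.8 to 9.99 ± 1.16 CPM (-3.00, SE 0.15, adjusted p = 3.66e-06). Between KO and WT, 3 were higher and 8 lower, against 14.9% of all genes called, with a median of -0.45 against 0. Klf1, the erythroid transcription factor gene, had the largest rise (230 ± 10.4 to 372 ± 9.67 CPM; 0.69, SE 0.06, adjusted p = 3.85e-07) and Pf4 the largest fall among those reaching 10 CPM (73.6 ± 7.44 to 16.7 ± 2.23 CPM; -2.14, SE 0.12, adjusted p = 1.45e-09).

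These target counts go with lineage markers. Of the 19 targets, 8 are also on a marker list used here. Between P2+ and P2-, 7 of 8 tested erythroid markers were lower (17.0% of all genes) and 8 of 9 megakaryocyte markers higher (20.1%) in P2+. Called higher in P2+, against the same 20.1%, were 5 of 9 markers for neutrophils and monocytes, 4 of 4 for mast cells and basophils and 6 of 8 for stem cells. Rhd, Csf1r, Fcer1a, Procr, Flt3 and Hoxb5 passed the filter through only 1 of the groups; without them 6 of 7 erythroid markers were lower, and 4 of 8 neutrophil and monocyte, 3 of 3 mast cell and basophil and 3 of 5 stem cell markers were higher. Between KO and WT, where 14.9% of all genes were called, 6 of 8 erythroid markers were higher, 5 of 9 megakaryocyte markers were lower and 2 higher, and 5 of 7 neutrophil and monocyte, 3 of 7 lymphoid (2 of 6 without Il7r, which passed only through WT) and 3 of 7 stem cell markers were lower, with 2 of 3 mast cell and basophil markers higher. The summed level of 13 lymphoid markers was 267 to 293 CPM in WT, 107 to 142 in P2-, 212 to 314 in P2+ and 140 to 147 in KO, most of it from Nkg7 (a mean of 226 CPM in WT and 98.6 in KO). That of 10 neutrophil and monocyte markers was 87.6 to 211, 29.9 to 107, 120 to 263 and 30.5 to 69.4 CPM, that of 7 mast cell and basophil markers 30.1 to 54.3, 31.6 to 37.3, 100 to 157 and 54.3 to 74.9 CPM with Cma1 at 0 throughout, and that of 8 stem cell markers 465 to 498, 273 to 293, 722 to 773 and 329 to 367 CPM. Their part in the member and list values was not tested.

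**Figure D5:**
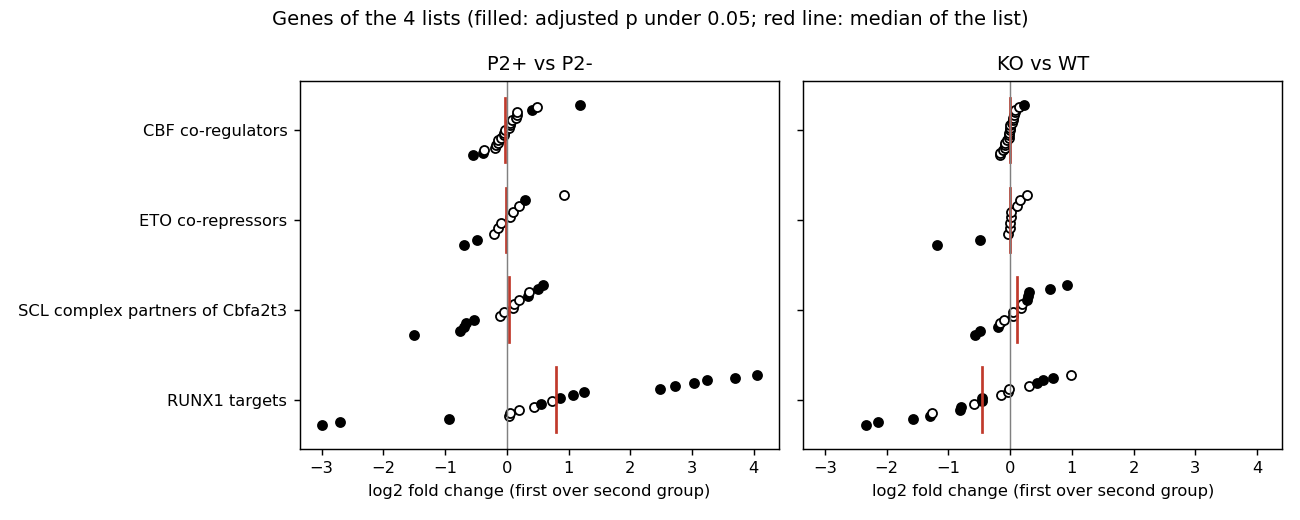
Log2 fold changes (x axis, first group over second) of the tested genes of the 4 lists in P2+ vs P2- (left) and KO vs WT (right); each point is a gene, filled at an adjusted p under 0.05, and the red line is the list's median. The RUNX1 targets spread widest, with medians of 0.80 and -0.45.

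For each tested member, the nearest profiles among 9527 genes of at least 10 CPM were found from the log2 differences of the P2-, P2+ and KO means from WT, taking the largest of the 3 gaps as the distance. Runx1 (-0.82, 0.77 and -0.04) was nearest to Bcl2l1 and Cd274, at gaps of 0.081 and 0.087. Runx2 was nearest to Trim47 (0.053) and Prc1 (0.059), and Runx3 to Tbcb (0.015) and Tgfb1 (0.017). The gaps of Runx1 were thus wider than those of Runx3, whose profile is flatter. Cbfb was nearest to Poc1b (0.029) and Txnrd1 (0.032), Cbfa2t2 to Slc5a6 (0.010) and Raver1 (0.017), and Cbfa2t3 to Zdhhc12 (0.014) and Zzef1 (0.015). With 3 differences per gene, such likeness is a description only.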

How the data were processed

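PolyA RNA libraries of sorted PreMegEs, 3 per group, were sequenced by the authors, aligned to GRCm38 with Bowtie2 and deposited as 1 table of raw read counts per gene, counted with featureCounts against Ensembl annotation. The strand setting of the counting and the treatment of reads with several alignments are not given in the sources used here, nor is it stated whether the KO libraries were made with the others. Libraries were grouped by their labels, and all 41128 genes entered library sizes. A gene was tested where 3 or more of the 6 libraries reached 1 CPM. Counts were normalized by TMM and tested with edgeR 4.0.16 (R 4.3.3) with no block. SE is the fold change divided by the square root of F. In P2+ vs P2- counts simulated for 12859 genes, 77.8% of 99 genes changed 2-fold and all of 100 changed 4-fold were called, with 3 false calls. The simulation gave every gene the same dispersion, drew unpaired libraries and changed few genes. These rates therefore check the code and do not measure error in the real data. CPM levels used 1 TMM scaling over 12 libraries; RPKM used the union of GENCODE vM21 exons (GRCm38). DESeq2 1.42.0 and the other alternatives are covered in the closing section. Same-numbered P2+ and P2- libraries deviated together (correlations 0.386, 0.572 and 0.405), so their numbers pair them; the block changed no member call there. Nothing says whether replicates were separate sorts, so p-values measure the spread between these samples. Named genes were the members, genes opposite them, the 2 nearest profiles of each, and from each list the largest called rise and fall among genes reaching a group mean of 10 CPM. Some results on list and marker genes are not reported here. The members and lists were chosen with earlier results of these data known, so no list is independent evidence.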

Additional observations from a re-analysis of the deposited data

How the results depend on the processing

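Of 468 alternative values of the 36 member results, 426 kept direction and call, 14 lost the call, 16 gained it and 12 changed sign; 22 results kept both throughout, among them every Runx1 value. The sign changes were all in uncalled values on leaving out libraries: Cbfa2t2 (-0.02 to 0.08 in P2+ vs WT, -0.04 to 0.08 in P2- vs WT, -0.05 to 0.06 in KO vs WT, -0.04 to 0.03 in KO vs P2-, -0.06 to 0.01 in KO vs P2+) and Cbfa2t3 (-0.05 to 0.04 in P2- vs WT).

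Asking for 2-fold as well left 2 members in P2+ vs P2- and 0 elsewhere, and 1626 of 4762 genes in P2+ vs P2-, 497 of 2138 in P2+ vs WT, 597 of 2101 in P2- vs WT, 436 of 1910 in KO vs WT, 64 of 203 in KO vs P2- and 1453 of 4743 in KO vs P2+. DESeq2 and 1 fit over all 12 libraries each called 5 members rather than 3 in P2+ vs WT, adding Cbfb and Cbfa2t3 (2477 and 2525 genes in all), and 3 rather than 2 in P2- vs WT, adding Cbfb (2407 and 2586). KO vs P2- depended most on the choices: 465 genes without a filter, 490 by DESeq2 and 359 by the exact test, with 2 members (Runx1 and Runx2) under the first pair. Leaving out single libraries, or replicate 2 of both groups, gave 1196 to 2448 genes in P2+ vs WT (lowest without WT replicate 2), 1109 to 2196 in P2- vs WT (lowest without WT replicate 1), 1156 to 1722 in KO vs WT (lowest without replicate 2), and 40 to 390 with 1 to 3 members in KO vs P2- (40 without KO replicate 2, 390 and 3 members without P2- replicate 2).

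With the replicate block, KO vs P2- fell to 102 genes and Runx3 in KO vs P2+ reached an adjusted p of 0.0486; no other member call changed. Numbers pair no libraries outside P2+ vs P2- (0 or 1 of 3 correlations over 0.1). The causes were not tested. The longest-transcript lengths behind the alternative shares were chosen after the data were seen.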
